A study of Mus musculus with 2 samples.

Results

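Capillary endothelial cells of whole mouse mesentery were chosen by their unique molecular identifiers (UMIs, counted molecules) on marker genes in single-cell RNA libraries. A barcode was a member when Cdh5, Cldn5, Gpihbp1, Egfl7 and Pecam1 together had at least 3 UMIs. It also needed at most 1 UMI of the pericyte genes Rgs5, Notch3, Kcnj8, Higd1b, Cox4i2 and Ndufa4l2 and at most 1 of the adipocyte genes Adipoq, Plin1, Cidec and Retn. No Ptprc UMI was allowed, at most 2 of Dcn, and at most 1 of Msln with Upk3b. Barcodes under 200 genes or above 10% mitochondrial UMIs had been removed first. The rule left 249 capillary endothelial barcodes, of 3143 barcodes past those filters and 3204 deposited. The tissue came from 2 untreated male mice of the inbred strain C57BL/6N with a wild-type genotype, which form a single group, and each gave 1 library made with the Chromium 3′ kit, version 2. The tissue was digested with the enzyme blend Liberase DH, and no age at harvest was used here. With 1 library per mouse and no second group, all values set the capillary endothelial barcodes beside the other barcodes of the same library.

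Capillaries are the exchange vessels of a tissue, and their endothelium forms a thin wall through which water, solutes and lipids pass. In fat-rich tissues such as the mesentery, triglyceride carried by lipoproteins is hydrolysed at the capillary surface. GPIHBP1 holds lipoprotein lipase there, CD36 takes up the released fatty acids, and FABP4 and FABP5 bind them inside the cell. Vascular endothelial growth factor receptors, angiopoietin receptors and Notch signalling keep these cells alive and set whether they adopt arterial, capillary or venous traits.

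The sequence just before the start of 5 genes with high ratios in these barcodes is printed for 2 genes of the rule (Cldn5, a tight-junction claudin, and Egfl7, a secreted endothelial factor), for Myct1 and Rbp7, which had large ratios in the rank below, and for Tie1, an endothelial receptor. Each line gives the 250 bases before the transcription start, 5′ to 3′ on the strand of the gene, from RefSeq on GRCm38.p6, with the letters GGAAG or, for the other strand, CTTCC in capitals. GGAAG is one form of the GGAA core bound by ETS family factors, which include Erg and Fli1. Other forms of that core are not marked or counted.
Cldn5: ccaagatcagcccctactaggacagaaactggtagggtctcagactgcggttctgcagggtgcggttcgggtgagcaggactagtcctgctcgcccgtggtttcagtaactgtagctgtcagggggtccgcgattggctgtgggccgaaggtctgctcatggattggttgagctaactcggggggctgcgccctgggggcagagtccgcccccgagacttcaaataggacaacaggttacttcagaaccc
Egfl7: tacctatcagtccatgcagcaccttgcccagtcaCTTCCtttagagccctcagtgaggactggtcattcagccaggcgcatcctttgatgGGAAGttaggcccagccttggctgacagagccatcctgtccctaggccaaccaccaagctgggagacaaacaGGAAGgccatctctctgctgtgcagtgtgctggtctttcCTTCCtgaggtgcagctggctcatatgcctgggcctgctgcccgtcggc
Myct1: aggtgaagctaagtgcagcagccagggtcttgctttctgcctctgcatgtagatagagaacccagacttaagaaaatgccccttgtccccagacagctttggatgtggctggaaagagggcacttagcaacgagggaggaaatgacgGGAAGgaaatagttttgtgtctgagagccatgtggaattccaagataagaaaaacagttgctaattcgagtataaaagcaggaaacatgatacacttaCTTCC
Rbp7: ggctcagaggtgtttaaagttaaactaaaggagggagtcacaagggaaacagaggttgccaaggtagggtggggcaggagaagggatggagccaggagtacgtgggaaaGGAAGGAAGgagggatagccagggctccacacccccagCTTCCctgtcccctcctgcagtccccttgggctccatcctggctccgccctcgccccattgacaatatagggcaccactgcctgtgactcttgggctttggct
Tie1: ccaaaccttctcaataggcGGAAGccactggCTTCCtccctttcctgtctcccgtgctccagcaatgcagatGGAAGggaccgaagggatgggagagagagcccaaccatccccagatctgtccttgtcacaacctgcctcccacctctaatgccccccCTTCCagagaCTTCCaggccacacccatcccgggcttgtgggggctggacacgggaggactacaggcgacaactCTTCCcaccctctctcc
The windows lie at chr16:18776597-18776846, plus strand for Cldn5, at chr2:26580833-26581082, plus strand for the first of 3 Egfl7 starts, at chr10:5593478-5593727, plus strand for Myct1, at chr4:149454969-149455218, minus strand for Rbp7 and at chr4:118489850-118490099, minus strand for Tie1. GGAAG or CTTCC matched 6 times in the Tie1 window and 4 times in that of Egfl7. In the Rbp7 window there were 3 matches, with 2 of these overlapping. The counts were 2 in the Myct1 window and 0 in that of Cldn5. A match is common: 66.9% of all 27025 genes in the table hold it in such a window. Of the 332 genes at least 4-fold higher in capillary endothelial barcodes, 240 had a window. A match was held by 70.4% of these, beside 73.3% of the 8001 tested genes with a window. Gpihbp1, Cdh5, Pecam1 and Fabp4 had no entry in the table.

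Members made up 141 of 1484 barcodes in library 1, or 9.50% (8.06 to 11.1%, exact 95% limits), and 108 of 1659 in library 2, or 6.51% (5.37 to 7.81%). The mean was 8.01% ± 2.12 (SD, n = 2 mice). The intervals cover counting error only. Members held 352067 and 296548 UMIs in libraries 1 and 2, of 5137671 and 5563521 deposited. The median member had 1912 UMIs in library 1 and 2202 in library 2, against 3229 and 2704 in the other barcodes. No barcode sequence occurred in both libraries. Beside the members, 136 and 148 barcodes with at least 3 endothelial UMIs passed a limit and were set aside. Of these, 80 and 71 were set aside for pericyte genes alone and 19 and 17 for adipocyte genes alone. These barcodes stay among the other barcodes, so ratios are mostly smaller for endothelial genes than against barcodes under 3 endothelial UMIs. Ratios of that second kind are given for 4 genes only.

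The rule used UMIs of the same libraries, so every gene of these barcodes counts as used and no test was made. Levels are UMIs summed over the barcodes of a library, per 1000000 (CPM), and 1 UMI counts 1 captured transcript whatever its length. A gene is called higher or lower here when it differed at least 4-fold in the same direction in both libraries, among genes with at least 20 UMIs in each library. Of 10424 such genes, 332 were higher (3.18%) and 443 lower (4.25%), with a median log2 ratio of 0.02 and 0.01. A sum of 0 was set at 3 counts, which is 8.52 and 10.1 CPM in the capillary endothelial barcodes, so a low gene could be called higher but hardly lower. Values of a gene are given for library 1 and then library 2.

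Among the rule's own genes, Gpihbp1, the anchor of lipoprotein lipase (ENSMUSG00000022579, chromosome 15, 75596628 to 75599481 in GENCODE M21 on GRCm38), stood at 2229.7 and 1713 CPM in capillary endothelial barcodes and 149.9 and 112 CPM in other barcodes. Cldn5 (ENSMUSG00000041378, chromosome 16, 18776847 to 18778262) stood at 3741 and 2526 CPM, against 304 and 216 CPM in other barcodes. Cdh5, the cadherin of endothelial adherens junctions (ENSMUSG00000031871, chromosome 8, 104101625 to 104144511), reached 1182 and 1032 CPM, against 116 and 115 CPM. The rule fixed these differences. Pecam1, the adhesion molecule CD31 (ENSMUSG00000020717, chromosome 11, 106654217 to 106750628), had 855 and 1093 CPM in capillary endothelial barcodes and 99.1 and 96.8 CPM in other barcodes. Egfl7 (ENSMUSG00000026921, chromosome 2, 26580014 to 26593120) had 756 and 786 CPM, against 64.8 and 65.9 CPM. Members held 4 to 53 UMIs of these 5 genes in library 1, with a median of 21, and 3 to 94 in library 2, with a median of 15.5. Just inside the threshold, 3 and 9 members had 3 to 5 such UMIs, and all of them also had Fabp4 and Cd36 UMIs. Just outside it, 3 and 5 barcodes with 2 such UMIs met every limit, and 0 of the 3 and 2 of the 5 had a Fabp4 UMI.

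A few members carried transcripts of other cells. In library 1, 2 members held 97.8% of the members' Prox1, Mmrn1, Reln and Lyve1 UMIs, which mark lymphatic endothelium, and in library 2 another 2 members held 91.7%. Of these 4, the 3 with Mmrn1 and Ccl21a UMIs had 0 UMIs of Fabp4, Cd36 and Car4, so the capillary label goes against their genes although they meet the rule. In library 2, 1 of these 3 held 19 of the 22 lymphatic UMIs. The other member there was counted for 3 Lyve1 UMIs alone. It had 0 UMIs of Prox1, Mmrn1, Reln and Ccl21a, but 44 of Fabp4 and 17 of Cd36. Haemoglobin UMIs lay almost wholly in 1 member of library 1 (99.3% of them) and 7 members of library 2 (99.9%). Myeloid genes such as Lyz2 and C1qa lay mostly in 4 members of each library, with 89.8% and 96.9% of those UMIs. In all, 7 and 12 members had at least 3 lymphatic, 10 haemoglobin or 10 myeloid UMIs, and values without them are given for the genes they carried. Scrublet, a doublet caller, marked both lymphatic members of library 1 and 5 of its 7 such members as doublets, and 0 of the 12 in library 2.

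Of 21 lipid genes past the minimum, 10 were called higher in capillary endothelial barcodes, against 3.18% of all genes. Among the 10 were those for fatty acid carriers and the transporter Cd36. Fabp4, the fatty acid carrier (ENSMUSG00000062515, chromosome 3, 10204088 to 10208576), stood at 20755 (20281 to 21236) and 14605 (14173 to 15046) CPM in capillary endothelial barcodes, with exact 95% intervals, against 1787 and 1212 CPM in other barcodes. Library 1 was higher than library 2 in members and in other barcodes alike, and the ratios were 11.6 (11.3 to 12.0) and 12.1 (11.6 to 12.5). Cd36, the fatty acid transporter (ENSMUSG00000002944, chromosome 5, 17781690 to 17888801), had 3519 and 3406 CPM in capillary endothelial barcodes and 519 and 486 CPM in other barcodes, 6.79 (6.33 to 7.27) and 7.01 (6.51 to 7.54) times as much. Macrophage barcodes, which also use Cd36, held 1146 and 1185 CPM of it, and lymphocyte barcodes held 17.2 and 9.16 CPM of Cd36 and 13.4 and 13.7 CPM of Fabp4. Mgll, the lipase that splits monoglycerides, stood at 1380.4 and 1079 CPM, against 169.6 and 129.6 CPM in other barcodes. Scarb1, a receptor for high-density lipoprotein, had 494 and 765 CPM, against 68.8 and 75.7 CPM. Fabp5 had 545 and 513 CPM, against 70.3 and 74.6 CPM, and C1qtnf9, a secreted adipokine relative, 486 and 631 CPM, against 50.6 and 44.7 CPM. Every one of these values was higher in the capillary endothelial barcodes of each library than in its other barcodes.

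The regulators on the lipid list showed the same pattern at lower levels. The products of Meox2 and Tcf15 together drive fatty acid uptake genes in heart endothelium of mice. Meox2 stood at 142 and 155 CPM, against 14.8 and 12.5 CPM in other barcodes, and Tcf15 at 548 and 519 CPM, against 56.5 and 50.8 CPM. Pparg, a lipid-sensing nuclear receptor, had 133 and 80.9 CPM, against 20.5 and 16.5 CPM. Lpl itself, the lipase that GPIHBP1 carries, was not higher, at 205 and 259.7 CPM in capillary endothelial barcodes and 328 and 387 CPM in other barcodes. The fatty acid transport proteins Slc27a1 and Slc27a4 and the receptor Vldlr stood at 1 UMI or none per library, and Slc27a6 had 0. Of 24 lipid genes, 21 passed the minimum, 10 were called higher, the rule gene Gpihbp1 among them, 0 lower and 11 neither. Their median log2 ratio was 1.75 and 1.33, and 3.18% and 4.25% of all genes were called higher and lower.

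The capillary marker list, which held no gene of the rule, had 13 of its 15 genes called higher and 0 lower. Its median log2 ratio was 3.14 and 3.10, and 3.18% and 4.25% of all genes were called higher and lower. Aqp1, the water channel (ENSMUSG00000004655, chromosome 6, 55336432 to 55348555), stood at 3562 (3367 to 3765) and 2293 (2124 to 2472) CPM, against 404 and 291 CPM in other barcodes. Rgcc, a regulator of cell cycle entry, had 1883 and 1426 CPM, against 253 and 186 CPM. Cd300lg, a glycoprotein of capillary and venule endothelium, had 653 and 745 CPM, against 62.0 and 63.5 CPM. These 3 genes were well apart in the 2 kinds of barcodes in each library. Car4, a membrane-bound carbonic anhydrase, stood at 406 and 378 CPM, against 34.9 and 25.5 CPM. Rbp7, a retinol-binding protein (ENSMUSG00000028996, chromosome 4, 149449687 to 149454978), had 775 and 368 CPM, against 54.6 and 29.9 CPM, and its level in library 1 was over that in library 2 in members and others. Timp4 was 9.61 and 10.5 times as high and Btnl9 11.3 and 11.5 times. The 2 genes called neither were Sdpr, a caveolar protein, with ratios of 4.48 and 3.09, and Tmem88, with 3.43 and 3.65.

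Against barcodes with fewer than 3 endothelial UMIs, the ratios of these 4 genes were far larger. Gpihbp1 was then 1009 and 705 times as high in capillary endothelial barcodes, Fabp4 185 and 116 times, Aqp1 346 and 170.1 times and Cd36 19.5 and 21.9 times. Of 10010 genes, 437 were then higher (4.37%) and 493 lower (4.93%), and the capillary list had 14 of 15 higher. Fibroblast barcodes held 84.6 and 104 CPM of Fabp4, and mesothelial barcodes 73.9 and 109 CPM.

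**Figure D1:**
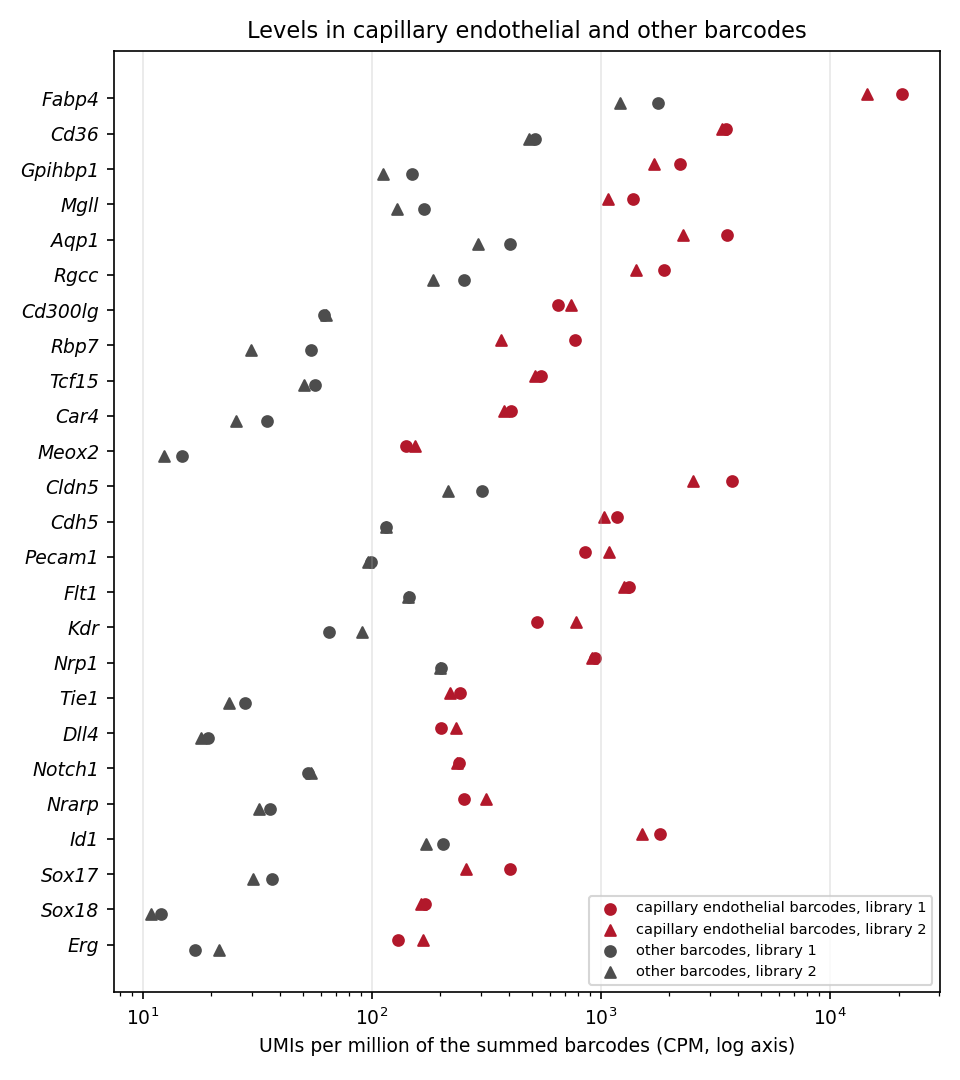
Levels of 25 genes in CPM on a log axis, with red points for capillary endothelial barcodes and grey points for other barcodes; circles are library 1 and triangles library 2. For every gene shown, both red points lie to the right of both grey points.

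Of 24 general endothelial genes outside the rule, 19 were called higher and 0 lower, against 3.18% and 4.25% of all genes, with 5 neither. Ptprb, a phosphatase of endothelial junctions, stood at 841 and 806 CPM, against 94.4 and 80.1 CPM in other barcodes. Cd93, a lectin-domain receptor, was 6.95 and 9.06 times as high at 693 and 921 CPM, and Adgrf5, an adhesion receptor, had 665 and 890.2 CPM, against 104 and 129.6 CPM. Esam was 10.5 and 9.46 times as high and Eng 5.23 and 5.98 times. Emcn, the endothelial sialomucin, stood at 395 and 361 CPM, against 28.6 and 30.1 CPM. Cd34 was one of the 5 called neither, at 287 and 249.5 CPM in capillary endothelial barcodes and 272 and 304 CPM in other barcodes; fibroblast barcodes held 489 and 519 CPM of it. The angiopoietin receptor Tek was also among them, with ratios of 3.29 and 2.72.

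Of 25 junction and surface-coat genes, 22 passed the minimum, 7 were called higher and 2 lower, against 3.18% and 4.25% of all genes. Of the 7, 3 were genes of the rule, and the others were Esam, Emcn, Jam2 and F11r. Jam2, a junctional adhesion molecule, stood at 386 and 354 CPM, against 44.9 and 53.7 CPM, and F11r at 349 and 303 CPM, against 55.0 and 75.1 CPM. The catenins that link cadherins to actin were higher by less than 4-fold, Ctnnb1 by 2.69 and 2.34 and Ctnna1 by 2.60 and 2.47 times. Gja1, a gap junction protein, had 466 and 536 CPM, against 155 and 136 CPM. Ocln, the occludin of tight barriers, had 0 UMIs in the members of both libraries, and Marveld2 had 1 UMI in all. Sdc4, a heparan sulfate carrier of many cells, was lower, at 34.1 and 23.6 CPM, against 258 and 388 CPM in other barcodes.

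Among caveolae, fenestra and channel genes, 4 of 15 past the minimum were called higher and 0 lower, against 3.18% and 4.25% of all genes. Besides Aqp1 they were Cav2, Aqp7 and Plvap. Cav1, the main coat protein of caveolae, stood at 1145 and 1268 CPM, against 222 and 334 CPM, and missed the 4-fold line in library 2. Cav2 had 534 and 428 CPM, against 48.3 and 44.3 CPM. Aqp7, a glycerol channel, had 364 and 330.5 CPM, against 30.5 and 23.4 CPM. Plvap, the protein of fenestral and caveolar diaphragms, had 205 and 135 CPM, against 17.1 and 13.0 CPM, and 182 and 155 CPM without the members that carried other cells' transcripts. Mfsd2a, a lipid transporter of the blood-brain barrier, had 0 UMIs.

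Several growth factor receptors were higher, while most of their ligands had few UMIs in members. Of 23 genes on the VEGF and angiopoietin list, 20 passed the minimum. Of these, 9 were called higher and 2 lower, against 3.18% and 4.25% of all genes. Flt1, VEGF receptor 1, stood at 1329 (1212 to 1455) and 1265 (1139.8 to 1399) CPM in capillary endothelial barcodes, against 146 and 144 CPM in other barcodes. Kdr, VEGF receptor 2, had 525 and 779 CPM, against 65.4 and 91.1 CPM, and library 2 was above library 1 in both kinds of barcodes. Nrp1, a coreceptor, stood at 949 and 921 CPM, against 200.5 and 199.6 CPM. Tie1 had 244 and 219 CPM, against 27.9 and 24.0 CPM. Flt4, VEGF receptor 3, which lymphatic and some blood endothelium use, stood at 36.9 and 50.6 CPM, against 4.23 and 6.13 CPM, and at 25.1 and 53.1 CPM without the members with other cells' transcripts. Among the ligands, Vegfa had 0 and 3 UMIs in members (34.9 and 34.5 CPM in other barcodes), Angpt1 0 and 0, and Vegfc 7 and 3. Angpt2, the ligand that antagonises TEK, was higher, at 62.5 and 70.8 CPM, against 5.29 and 9.20 CPM. Thbs1, an inhibitor of vessel growth, was lower, at 142 and 148 CPM, against 843 and 803 CPM.

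Notch genes were higher in most cases: of 17, 14 passed the minimum, 9 were called higher and 2 lower. Over all genes the shares were 3.18% and 4.25%, and the Notch list had a median log2 ratio of 2.68 and 2.56. The ligand Dll4 stood at 202 and 233 CPM, 10.5 and 12.9 times the level of other barcodes, and the receptor Notch1 at 241 and 236 CPM, against 52.7 and 54.6 CPM. Notch4, the endothelial receptor, had 96.6 and 84.3 CPM, against 9.74 and 12.7 CPM. Among targets, Nrarp had 253 and 317 CPM, against 36.2 and 32.4 CPM, and Hey1 45.4 and 54.0 CPM, against 6.56 and 4.98 CPM. Hes1, a target used by many cells, had 1278 and 833 CPM and was higher by 3.26 and 2.93 times, below the line. Hey2 and Heyl had 0 UMIs in members. Notch2 and Notch3 were called lower, but Notch3 is one of the genes the rule limits. It had 1 UMI in the members of each library, which was 0.102 and 0.0994 times the level of other barcodes, but level with barcodes under 3 endothelial UMIs, at 2.84 and 3.37 CPM in members and 2.45 and 3.31 CPM in those.

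On the TGF-beta and BMP list only Id1 and Eng were called higher among 19 genes past the minimum, against 3.18% of all genes. Id1, a direct BMP target, stood at 1826 and 1514 CPM, against 206 and 173 CPM, whereas Id3 differed by 1.90 and 1.57 times. The type 1 receptor Acvrl1 was 2.85 and 2.66 times as high and the mediator Smad1 3.30 and 3.10 times, both under 4-fold. The ligand Bmp6 had 0 UMIs in members. Tgfb2 and Bmpr1a were called lower, on 1 UMI or none per library in members, against 4.25% of all genes called lower.

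Of 33 endothelial transcription factors, 31 passed the minimum, 13 were called higher and 0 lower, against 3.18% and 4.25% of all genes. Epas1, the hypoxia factor HIF-2α, stood at 937 and 1039 CPM, against 151 and 162 CPM in other barcodes. The 3 SOXF factors were all higher: Sox17 had 400.5 and 259.7 CPM, against 36.6 and 30.5 CPM, Sox7 298 and 229 CPM, against 27.3 and 24.7 CPM, and Sox18 170.4 and 165 CPM, against 12.1 and 10.9 CPM. Of the ETS factors, Erg had 131 and 169 CPM, against 16.9 and 21.7 CPM, and Fli1 293 and 378 CPM, against 68.2 and 61.3 CPM. Mecom was 8.58 and 13.9 times as high, Tal1 7.89 and 24.1 times and Gata2 12.5 and 7.82 times. Klf4 and Klf2, which respond to flow in endothelium, stayed under 4-fold. Klf4 had 1716 and 1251 CPM, against 1286 and 1124 CPM, and Klf2 1406 and 1012 CPM, against 516 and 424 CPM. Nr2f2, the venous factor, stood at 31.2 and 33.7 CPM, against 37.5 and 55.2 CPM, and Foxc2, a factor of lymphatic valves, had 0 UMIs.

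**Figure D2:**
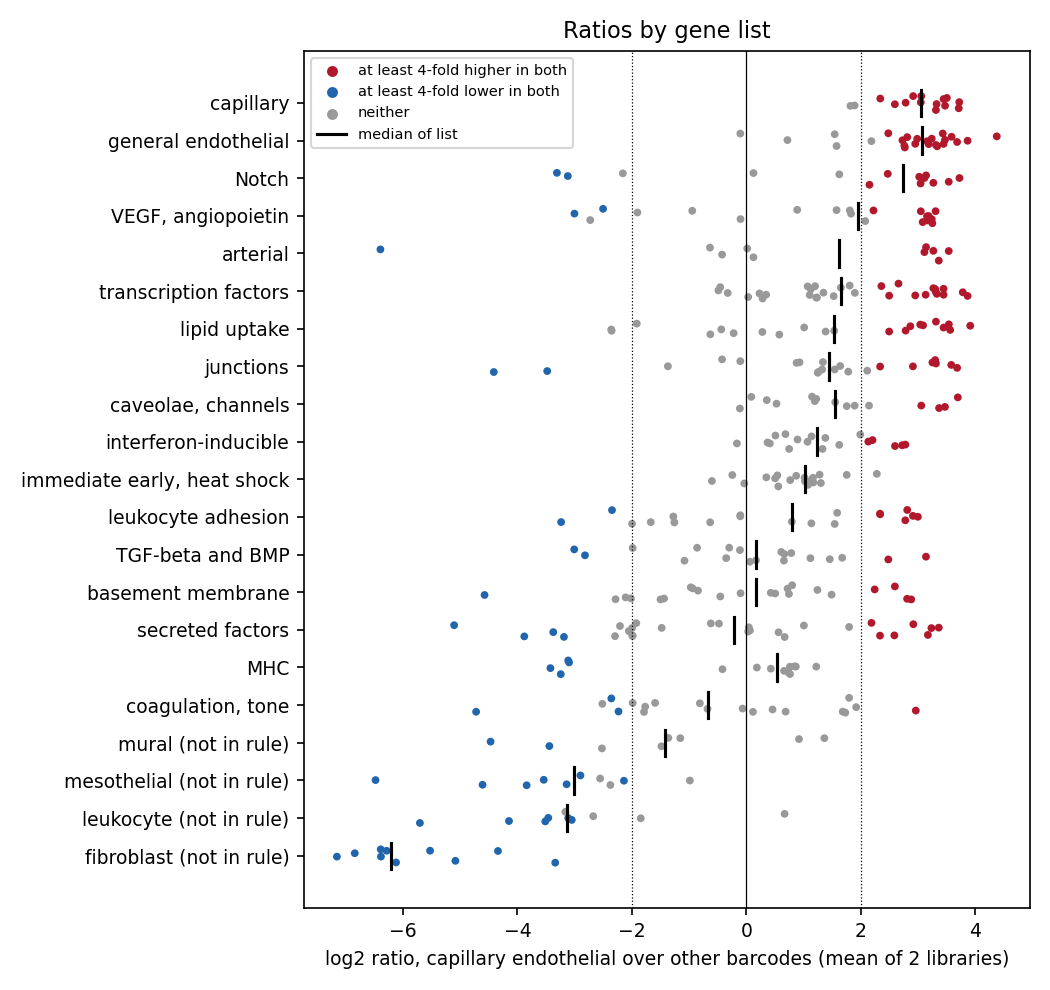
Mean over both libraries of the log2 ratio of capillary endothelial over other barcodes, 1 point per gene past the minimum of 20 UMIs, by gene list; a black bar is the median of the list, dotted lines mark 4-fold, and a sum of 0 is set at 3 counts. Capillary, general endothelial and Notch genes lie mostly right of the line at 4-fold higher, and the fibroblast genes outside the rule all lie left of the line at 4-fold lower.

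Of 24 genes for leukocyte traffic, 19 passed the minimum, 6 were called higher and 2 lower, against 3.18% and 4.25% of all genes. Cxcl12, a chemokine that retains leukocytes and guides vessels, stood at 508 and 627 CPM, against 109 and 115 CPM in other barcodes. Icam2, the constitutive integrin ligand, had 131 and 105 CPM, against 17.8 and 15.5 CPM, while the inducible Icam1 had 517 and 344 CPM, against 209 and 175 CPM. Cxcl9, an interferon-inducible chemokine, had 142 and 138 CPM, against 19.1 and 16.1 CPM. The inflammatory chemokines Ccl2 and Cxcl1 were lower, Ccl2 at 244 and 111 CPM, against 1648 and 1464 CPM, and Cxcl1 at 562 and 354 CPM, against 2324 and 2216 CPM. Selectins and venular receptors were scarce: members held 0 and 1 UMIs of Sele, 5 and 6 of Selp, 3 and 0 of Ackr1 and 0 and 11 of Vcam1.

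Antigen presentation genes of class I were near the level of other barcodes. H2-D1 was 1.65 and 1.75 times as high, H2-K1 1.63 and 1.70 times and B2m 1.53 and 1.63 times, although H2 genes are a family whose near-identical copies may share reads. The 4 class II genes were all called lower, against 4.25% of all genes. Cd74, the invariant chain, stood at 361 and 745 CPM, against 6143 and 3273 CPM in other barcodes, and at 50.2 and 4.08 CPM without the 7 and 12 members that carried other cells' transcripts. H2-Aa stood at 88.1 and 216 CPM in all members and 9.41 and 12.2 CPM without those. Of 18 interferon-inducible genes, 5 were called higher and 0 lower, against 3.18% and 4.25% of all genes. Iigp1, a GTPase, stood at 2039 and 1592 CPM, against 255 and 269 CPM, and Ly6c1, an endothelial surface protein, at 2065 and 1743 CPM, against 335 and 246 CPM. Both belong to gene families with close copies. Bst2 was 4.50 and 4.74 times as high, Isg15 4.10 and 4.70 times and Gbp4 5.47 and 6.73 times, while Ifit1 differed by 1.63 and 2.12 times.

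The basement membrane list had 4 genes called higher and 1 lower of 22 past the minimum, against 3.18% and 4.25% of all genes. Sparcl1, a matricellular protein also on the capillary list, stood at 1076 and 1190.4 CPM, against 182 and 192 CPM. The laminin receptor subunit Itga6 had 511 and 523 CPM, against 73.2 and 74.0 CPM, and Itga1, a collagen and laminin receptor subunit, 56.8 and 121 CPM, against 10.2 and 12.5 CPM. Lama5 was 4.47 and 5.03 times as high. The collagen IV chains Col4a1 and Col4a2 were not called: Col4a1 stood at 744 and 698 CPM, against 442 and 431 CPM, and Col4a2 at 517 and 526 CPM, against 221 and 219 CPM. Sparc differed by 1.43 and 1.27 times. Bgn, a proteoglycan of fibrous matrix, was lower, at 28.4 and 10.1 CPM, against 425 and 383 CPM.

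Coagulation and tone genes showed 1 higher and 3 lower calls among 19, against 3.18% higher and 4.25% lower over all genes tested. Nos3, the endothelial nitric oxide synthase, stood at 68.2 and 67.4 CPM, against 8.04 and 9.39 CPM. Thbd, the thrombin receptor that starts anticoagulation, had 276 and 314 CPM, below the 457 and 581 CPM of other barcodes; mesothelial barcodes held 1037 and 1078 CPM of it. Ednrb, an endothelin receptor, was 3.01 and 3.66 times as high, under 4-fold. Edn1, the endothelin, missed the line in library 2, with ratios of 4.81 and 2.51. Vwf, which large vessels and veins store, had 3 and 7 UMIs in members, and F8 had 0. Ptgis, Plat and Gucy1a3 were called lower.

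Secreted factors were mixed, with 7 of 28 called higher and 4 lower, against 3.18% and 4.25% of all genes tested. Kitl, the ligand of KIT, stood at 395 and 334 CPM, against 53.6 and 42.9 CPM in other barcodes. Pdgfb, which recruits pericytes, had 39.8 and 77.6 CPM, against 8.89 and 9.58 CPM. Igfbp3 was 10.9 and 8.12 times as high, Hbegf 4.99 and 4.16 times and Tnfsf10 10.5 and 7.74 times. Igfbp7 had 2892 and 2597 CPM, against 1476 and 1258 CPM, and fibroblast barcodes held 2454 and 2117 CPM. Igfbp4 was lower, at 73.8 and 108 CPM, against 708 and 932 CPM, and so was Igfbp5, at 14.2 and 10.1 CPM, against 363 and 469 CPM. Il33, Hgf and Wnt2 had 0 UMIs in members. None of the 20 immediate early and heat shock genes was called, with a median log2 ratio of 1.24 and 0.76. Fos stood at 3556 and 3153 CPM, against 1250.4 and 1516 CPM, and Hspb1 at 1892 and 934 CPM, against 299.9 and 249 CPM.

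Markers of other cell types outside the rule were mostly low, beside 4.25% of all genes called lower. All 10 fibroblast genes were called lower, with Col3a1 at 22.7 and 16.9 CPM, against 1402 and 1664 CPM, and Pdgfra and Lum at 0. Of 10 mesothelial genes 7 were lower, and of 10 leukocyte genes 6. Of 10 mural genes 8 passed the minimum and 2 were lower, Pdgfrb with 1 and 1 UMIs and Steap4 with 2 and 5. Adipocyte genes were not low. Car3 stood at 293 and 435 CPM, against 85.3 and 136 CPM, and Cfd at 76.7 and 199 CPM, against 26.9 and 52.7 CPM. The summed level of the rule's adipocyte genes was 76.7 and 101 CPM in members and 31.3 and 48.9 CPM in other barcodes, and 27 and 30 members had 1 such UMI. The part of free or adhering adipocyte RNA in the lipid genes was not tested. Haemoglobin genes, whose copies share reads, reached 1261 and 14298 CPM of Hbb-bs in members, against 453 and 401 CPM in other barcodes, and 6.28 and 8.16 CPM in members without those already described.

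By library 1, the largest ratios outside the rule among genes with at least 30 member UMIs were those of Ccl21a and Mmrn1. Both rest on the lymphatic members, of which those in library 1 were Scrublet doublets: Ccl21a had 398 and 109 UMIs in members and 2 and 96 in other barcodes, and 0 in members without those with other cells' transcripts. Mmrn1 had 51 and 6 UMIs in members and 0 and 14 in other barcodes, and likewise 0 without them. Ccl21a has close copies in the genome, and a second row of that name held 0. The next were Myct1, an endothelial membrane protein, at 244 and 290.0 CPM, against 11.9 and 13.8 CPM, then Rbp7, Sox18 and Cmtm8, whose ratios were 14.1 and 8.64. Emcn, Tmem252, Ushbp1 and Ecscr followed. Tmem252, a membrane protein of unsettled function, had 633 and 422 CPM, against 45.9 and 39.5 CPM, and Ushbp1 301 and 249.5 CPM, against 22.2 and 19.6 CPM. Gata2, Lmcd1, Aqp7, Plvap and Unc45b completed the 15, with Lmcd1 at ratios of 12.4 and 18.7 and Unc45b, a myosin chaperone, at 11.7 and 10.5. At the other end, Dpt, a dermal matrix protein, had 1 and 7 UMIs in members and 3407 and 3409 in other barcodes. Hk2, a hexokinase, had 1 and 2, against 3372 and 2724, and Col6a1 1 and 2, against 1809 and 2062. Has1, a hyaluronan synthase, had 1 and 0 UMIs in members, against 1664 and 1329 in other barcodes, and Mfap5, a microfibril protein, 2 and 1, against 3215 and 2986.

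Capillary, arterial and venous genes were set side by side by the share of barcodes with a UMI after each was thinned to 1000 UMIs. This left 137 and 101 members and left out 4 and 7; lymphocyte barcodes, which should lack these genes, numbered 220 and 177, and their median depth of 1901 and 1910 UMIs was near that of members. Every thinned member had a UMI of the 15 capillary genes, with a median of 16 and 15, against 17.3% and 14.7% of lymphocytes. Cd36 was found in 127 of 137 and 96 of 101 members and 2.27% and 1.13% of lymphocytes, and in 97.9% and 98.1% of members before thinning. Rgcc was found in 73.7% and 67.3% of members, and its share of 11.4% and 10.7% in lymphocytes was the highest background of the capillary genes shown.

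Of thinned members 52.6% and 48.5% had a UMI of the 13 arterial genes, against 0% and 2.26% of lymphocytes. The arterial list summed to 1023 and 951 CPM in members, near the levels of the endothelial barcodes set aside. Those set aside for pericyte genes alone held 929 and 908 CPM and those for adipocyte genes alone 817 and 1119 CPM. Sox17 was found in 32.1% (24.4 to 40.6) and 18.8% (11.7 to 27.8) of members with exact intervals, Dll4 in 14.6% and 17.8% and Efnb2 in 7.30% and 11.9%, and none of the 3 in any thinned lymphocyte. Of the connexin genes that mark larger arteries, Gja5 and Gja4 were found in 0 of 137 and 0 of 101 thinned members, which allows up to 2.19% and 2.97% of barcodes with a UMI at this thinned depth (3 counts of the total). Bmx was found in 1 and 1. Before thinning, Sox17 was found in 48.2% and 38.0% of members, Gja5 in 0.709% and 0.926% and Gja4 in 1.42% and 0%. Mgp, of arterial wall and fibroblasts, was lower, with 2 and 1 UMIs in members.

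Venous genes were rare, in 7.30% and 18.8% of thinned members, against 2.73% and 1.13% of lymphocytes. Ephb4 was found in 2.92% and 5.94%, Nr2f2 in 0.730% and 3.96% and Vwf in 0.730% and 3.96%. Ackr1 was found in no thinned member. Library 2 exceeded library 1 for Ephb4, Nr2f2 and Vwf, on 1 to 6 barcodes each. Aplnr was found in 2 and 4 thinned members and Selp in 1 and 1. The venous list summed to 161.9 and 229.3 CPM in all members. Endothelial barcodes set aside for pericyte genes alone held more, at 288.9 and 382.9 CPM. Those set aside for adipocyte genes alone held less, at 77.05 and 101.7 CPM. The part of the rule's pericyte limit in the low venous share of members was not tested. Lymphatic genes were found in 4.38% and 6.93% of members, and the 22.7% and 31.1% in lymphocytes include Thy1, a T cell gene. The list of 9 tip-cell and immature genes was found in 46.7% and 43.6% of members, against 14.1% and 12.4% of lymphocytes. Beside 3.18% of all genes, 3 of the 7 past the minimum were called higher. Of these, Trp53i11 was found in 32.1% and 22.8% of members, against 11 of 220 and 9 of 177 lymphocytes, Plvap in 11.7% and 7.92%, and Angpt2 in 2.19% and 5.94%; Esm1, not tested for few UMIs, was found in 1.46% and 2.97%. The 8 cell cycle genes were found in 20.4% and 17.8% of members, against 12.7% and 8.47% of lymphocytes. Most of this was Pcna, a replication and repair factor, in 19.0% and 17.8% of members and 10.9% and 4.52% of lymphocytes. Before thinning, members held 0 UMIs of Mki67, Cdk1 and Ccnb1, 1 and 1 of Top2a, 2 and 1 of Ccnb2, 0 and 2 of Birc5 and 1 and 0 of Mcm2.

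**Figure D3:**
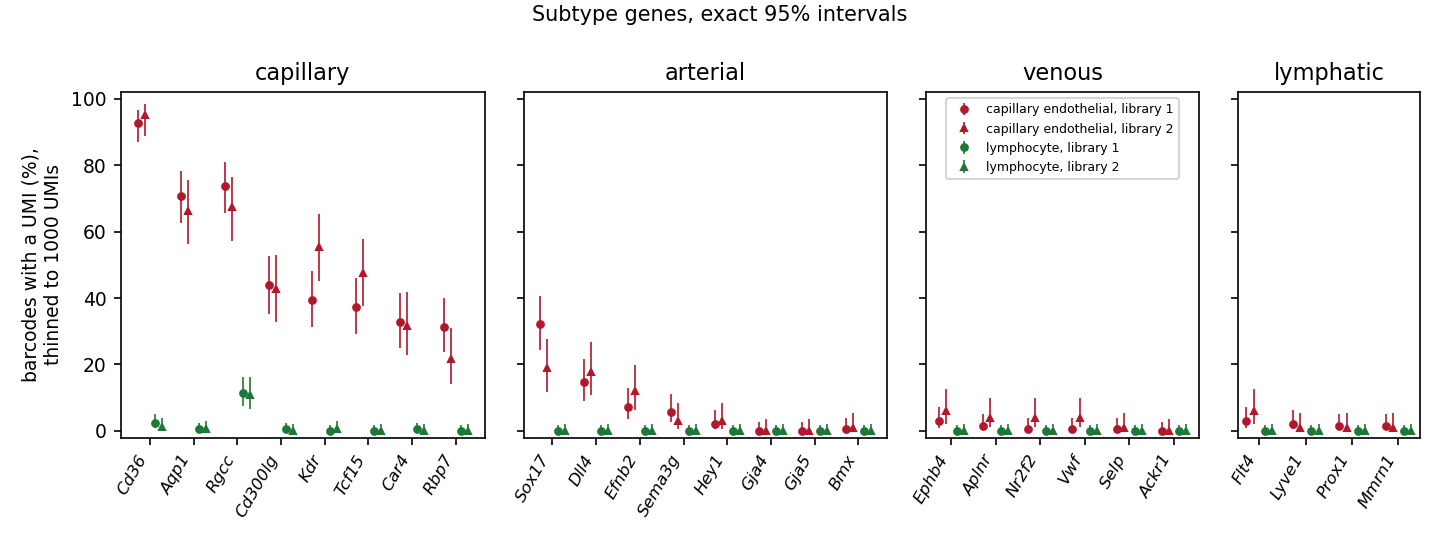
Share of barcodes with at least 1 UMI of each gene after thinning to 1000 UMIs, with exact 95% intervals, for capillary endothelial barcodes (red) and lymphocyte barcodes (green); circles are library 1 and triangles library 2. Cd36, the most frequent capillary gene, is in 127 of 137 and 96 of 101 members, Sox17 and Dll4 lie between 14.6% and 32.1%, and venous and lymphatic genes stay at or below 5.94%.

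Of 1301 genes with a mean of at least 0.1 UMI per 1000 in each library, 22 had a variance across members of at least 2 times their mean in both libraries. The haemoglobin genes, Ccl21a, Cd74 and Lyz2 were among them, and lay mostly in the few members already described. Fabp4 had a ratio of 6.63 and 5.75, with a range of 0 to 59 UMIs per 1000 and a median of 21 in library 1, and of 0 to 41 with a median of 13 in library 2. Before thinning, 139 of 141 and 107 of 108 members had a Fabp4 UMI. The members without it were the 3 with Mmrn1 and Ccl21a UMIs. Cldn5, a rule gene, had a ratio of 2.63 and 2.26. Across the thinned members, Fabp4 was ordered like Gpihbp1 (Spearman's rho 0.32 and 0.41, n = 137 and 101) and like Cldn5 (0.39 and 0.32); these points share a library, and Gpihbp1 and Cldn5 are genes of the rule. With Cd36 the rho of Fabp4 was 0.24 and 0.09. These ratios and rho values include the members with other cells' transcripts, and their part in them was not tested.

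Aqp1 had the largest such ratio on the capillary list, with a variance of 4.00 and 3.48 times its mean. Of thinned members, 40 of 137 and 34 of 101 had no Aqp1 UMI, while others had up to 16 and 12. Rbp7 ran against it, with a rho of -0.33 and -0.29, a gene pair picked after its values were seen. Of the members without Aqp1, 22 of 40 in library 1 (55.0%, exact limits 38.5 and 70.7%) and 12 of 34 in library 2 (35.3%, 19.7 and 53.5%) had an Rbp7 UMI. Of the members with Aqp1, 21 of 97 (21.6%, 13.9 to 31.2%) and 10 of 67 (14.9%, 7.40 to 25.7%) had one. The intervals overlapped in library 2 but not in library 1. They cover counting error among barcodes of 1 mouse each, and the difference was not tested. Without the members carrying other cells' transcripts, the shares were 55.6% and 40.0% of members without Aqp1 and 22.3% and 15.3% of those with it. The median Fabp4 count was 18.5 and 11.5 per 1000 in members without Aqp1 and 22 and 14 in those with it. The median Gpihbp1 count was 2 and 1, against 3 and 2. Gpihbp1 is a gene of the rule, by which every member was chosen. Tmsb4x, which encodes an actin-binding thymosin, was ordered with Aqp1 (rho 0.28 and 0.43) and against Rbp7 (-0.31 and -0.24).

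**Figure D4:**
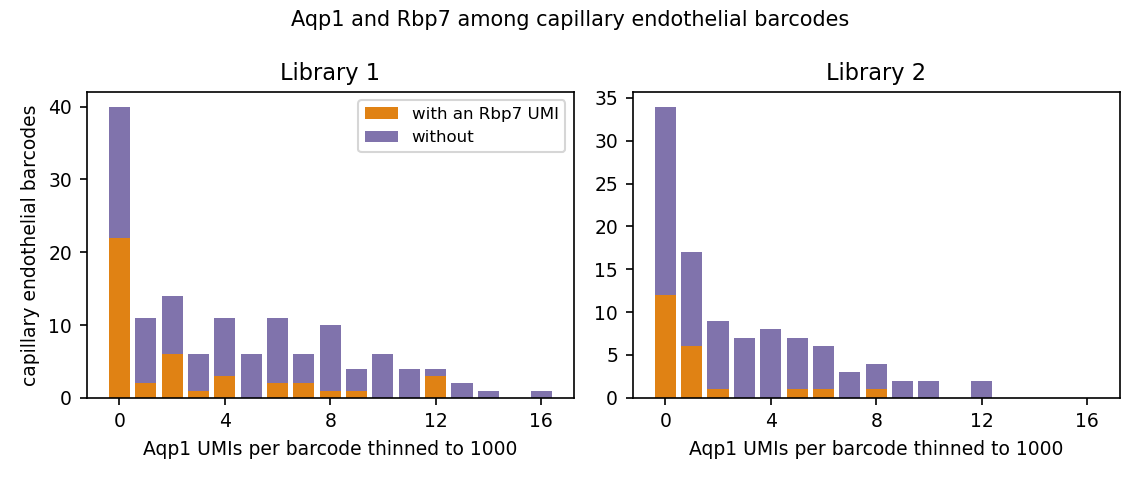
Number of capillary endothelial barcodes by Aqp1 UMIs after thinning to 1000 UMIs, in library 1 (left) and library 2 (right); orange marks barcodes with an Rbp7 UMI and purple those without. The tallest bar is at 0 Aqp1 UMIs, with 40 and 34 barcodes, of which 22 and 12 have an Rbp7 UMI.

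Endothelial barcodes set aside for another cell's genes had met the same minimum of 3 UMIs on the 5 endothelial rule genes, so that likeness in those genes, Gpihbp1 and Cldn5 among them, is fixed by the rule. Set against the 80 and 71 set aside for pericyte genes alone, 9 of 3828 genes were at least 4-fold higher in members (0.235%) and 60 lower (1.57%). The 9 higher ones were Ccl21a, Cd74, the class II genes H2-Aa, H2-Ab1 and H2-Eb1, and the macrophage genes C1qa, C1qb, C1qc and Pf4, which are of the kinds that the few mixed members carried. Among the 60 lower ones were the 6 pericyte genes of the rule and also Pdgfrb, the receptor for PDGFB, at 2.84 and 3.37 CPM in members and 224 and 347 CPM in the barcodes with pericyte UMIs. Steap4 stood at 5.68 and 16.9 CPM, against 280.4 and 359 CPM. Gja4, on the arterial list, was also lower, at 5.68 and 0 CPM in members and 87.8 and 134 CPM in the barcodes with pericyte UMIs. None of the 15 capillary genes passed 4-fold in either direction. Fabp4 stood at 20755 and 14605 CPM in members and 14003 and 9224 CPM in those barcodes, Gpihbp1 at 2229.7 and 1713 CPM, against 1221 and 924 CPM, and Aqp1 at 3562 and 2293 CPM, against 2946 and 3146 CPM. The barcodes with pericyte UMIs had a median of 4377 and 3220 UMIs, above the 1912 and 2202 of members.

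Set against the 19 and 17 barcodes set aside for adipocyte genes alone, 2 of 2582 genes were at least 4-fold higher in members (0.0775%) and 8 lower (0.31%). A sum of 0 in those few barcodes stands at 46.2 and 43.6 CPM. A gene absent there was thus called higher only if far above this level in members, and few higher calls do not show likeness. The 8 were the adipocyte genes Adipoq, Cidec and Retn of the rule, and Car3, Cfd, Dgat2, Scd1 and Ifi27l2a. Car3, a carbonic anhydrase of fat cells, stood at 293 and 435 CPM in members, against 1510.2 and 2296 CPM. Fabp4 and Cd36 passed no such line, with Fabp4 at 20755 and 14605 CPM, against 19247 and 14021 CPM, and Cd36 at 3519 and 3406 CPM, against 3189.8 and 4257 CPM. The 2 higher genes were Ccl21a and Aig1, a hydrolase of lipids, and Aig1 had 28 and 22 UMIs in members, against 1 in each library of the barcodes with adipocyte UMIs. That 1 UMI is 15.4 and 14.5 CPM, below the level given to a sum of 0.

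**Figure D5:**
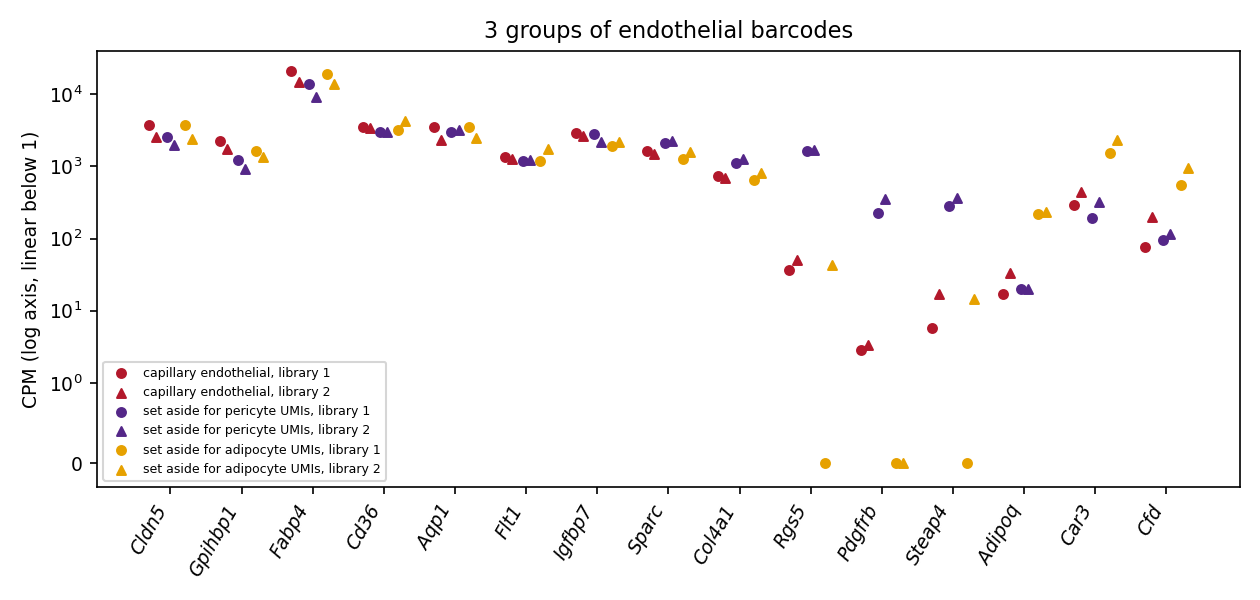
Levels of 15 genes in capillary endothelial barcodes (red), endothelial barcodes set aside for pericyte UMIs alone (purple) and those set aside for adipocyte UMIs alone (yellow), in CPM on a log axis that is linear below 1; circles are library 1 and triangles library 2. Cldn5 and Gpihbp1 are genes by which all 3 groups were chosen; Rgs5, Pdgfrb and Steap4 are high in the purple points and Adipoq, Car3 and Cfd in the yellow points.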

How the data were processed

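The deposited values are UMI counts per gene and barcode, whole numbers with no normalization, from 1 matrix of 27998 genes and 3204 barcodes. The submitters' processing notes name Cell Ranger and the build mm10, and the version and the threshold that chose the barcodes are not given in the sources used here. Barcode suffixes 1 and 2 were matched by number to the mice. Counts were summed per library and population and scaled to 1000000 (CPM). The members, gene lists and comparisons were chosen with earlier results of these data known. Intervals are exact Clopper-Pearson, Poisson and conditional binomial intervals at 95%, for counting error only. Scrublet in scanpy 1.11.5 called 39 and 4 doublets, of which 6 and 0 were members; they were kept and removed as an alternative. Other populations were barcodes with at least 3 UMIs of their markers and 3 times those of any other list and of the 5 endothelial rule genes. Alternatives used edgeR 4.0.16 and DESeq2 1.42.0 factors only for scaling. The computations were tested on simulated data. Genes named are the 15 largest upward and 5 largest downward ratios in library 1, the genes of the rule, and, per list, up to 6 with the highest level, up to 3 more past 4-fold and up to 3 at or under the limit of 3 counts, with a few beyond these picked for their role. Symbols of 3 listed genes did not match exactly 1 row.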

Additional observations from a re-analysis of the deposited data

How the results depend on the processing

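No paired analysis was possible because no test was made; each ratio is already taken within 1 mouse. The mean share of capillary endothelial barcodes was 5.37% when 0 replaced 1 as the limit for pericyte, adipocyte and mesothelial UMIs, and 6.51% to 9.50% in single mice. That limit also left 278 genes lower. The count of higher genes was 948 at 2-fold, 89 at 8-fold and 457 to 464 in single libraries. With no minimum beyond 1 UMI it was 3080. There a member sum of 0, set at 3 counts, can by itself make a gene with few UMIs higher. The 3080 are thus not a count of genes higher in members. The count of lower genes was 1177 at 2-fold, 184 at 8-fold and 688 to 817 in single libraries. The share of members with an arterial gene was 36.4% at 500 UMIs, 75.5% at 2000 and 73.8% with no thinning (48.5% to 52.6% in single libraries), and with a venous gene 23.8% at 2000 and 24.96% with no thinning (7.30% to 18.8%). Thinning leaves out barcodes below the chosen depth, and the median member had 1912 and 2202 UMIs. The values at 2000 thus rest on the deeper members only. No called gene passed 4-fold in the other direction, and Notch3 alone of the called list genes changed sign, against barcodes under 3 endothelial UMIs. Scaling by TMM moved the median log2 ratio of all genes by -0.13, with 298 higher and 501 lower, and DESeq2 size factors by -0.10, with 310 and 486. Of 504 values of single genes and lists, 369 moved by less than the spread between mice, 71 moved up and 64 down. These include values with 1 mouse left out, which for single genes lie within that spread by construction. A gene with a wide spread, such as Ccl21a, also counts as unmoved after a large shift, so the 369 do not measure stability. Depth limits lower calls of genes with few UMIs.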

Other observations

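Of the immediate early genes, 2 of many possible pairs are given: Fos and Egr1 had a Spearman's rho of 0.34 and 0.36, and Btg2 and Junb 0.33 and 0.36 (n = 137 and 101 thinned members of libraries 1 and 2, which share their library). Id1 and Id3, the BMP targets, had a rho of 0.31 and 0.29, although Id1 was called higher in members and Id3 was not. The VEGF receptors Flt1 and Kdr had a rho of 0.08 and 0.07. These pairs were picked after their values were seen. In library 2, 96 Ccl21a UMIs lay in other barcodes, against 2 in library 1. Barcodes under 3 endothelial UMIs held 0 CPM of Ccl21a in library 2, so those 96 lay in endothelial barcodes set aside. Barcodes set aside for pericyte genes alone or for adipocyte genes alone held 0 of them.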
